A study of Mus musculus with 12 samples.

Results

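The 10 genes described here encode the stress sensors of the endoplasmic reticulum, the 4 kinases that phosphorylate eIF2 alpha, and the factors that act directly with the sensors. They are *Ern1*, *Eif2ak1*, *Eif2ak2*, *Eif2ak3*, *Eif2ak4*, *Atf6*, *Atf6b*, *Xbp1*, *Mbtps1* and *Mbtps2*, taken by gene symbol from the 55536 genes of the deposited tables. All 10 were among the 19661 genes with enough counts to be tested. RNA sequencing was done on thyroids of 12 mice with 1 library per mouse. The 5 affected mice had the thyroid dysplasia phenotype and were C57BL/6 mice of the B6NTac substrain, in which a LINE-1 insertion in an intron of *Tg* (thyroglobulin) was described. The 7 unaffected mice were labelled wild type in phenotype. They were 6 mice of the B6NCrl substrain from Charles River and 1 knockout animal from Taconic, whose deleted gene is not named in the sources used here. Age, sex and the LINE-1 genotype of each sequenced mouse were not given in the labels, and no treatment was recorded for either group. All affected mice came from Taconic and 6 of the 7 unaffected mice from Charles River, so that substrain and phenotype cannot be told apart except through 1 animal. Each library held between 11434901 counts (unaffected replicate 14, the Taconic animal) and 23319948 counts (affected replicate 5). The estimated counts of the members lay between 224 (*Atf6b*) and 3355 (*Ern1*) in a mouse.

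The sensors in the membrane of the endoplasmic reticulum respond to unfolded protein in its lumen. IRE1 alpha (*Ern1*) is a kinase and ribonuclease that cuts *Xbp1* mRNA, and the rejoined message encodes the active transcription factor. PERK (*Eif2ak3*) phosphorylates the alpha subunit of eIF2, which slows translation in general and favours that of ATF4. ATF6 moves to the Golgi, where the site-1 protease (*Mbtps1*) and the site-2 protease (*Mbtps2*) release its transcription factor domain. HRI (*Eif2ak1*), PKR (*Eif2ak2*) and GCN2 (*Eif2ak4*) phosphorylate the same site of eIF2 in response to heme shortage or mitochondrial stress, double-stranded RNA, and amino acid shortage. Thyrocytes fold and secrete thyroglobulin in large amounts, and misfolded thyroglobulin is a known cause of stress in this compartment. Much of the regulation of these sensors is by cleavage, splicing and phosphorylation, none of which is measured by the abundance of their mRNA.

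Several libraries stood apart from the rest of their group. *Tg* was the most abundant of 12 thyrocyte markers, and all 12 were tested. The mean log2 CPM (counts scaled to the library total with its TMM normalization factor) of the other 11 was 4.87 in affected replicate 1 and 5.04 in affected replicate 6, against 6.02, 6.13 and 6.02 in affected replicates 3, 4 and 5. It lay between 5.3 and 5.9 in the unaffected mice. The 11 include *Slc26a4*, higher in the affected mice (log2 fold change 3.69) from 0.117 CPM in the unaffected mice, and *Pax8*, lower (-0.81). Their mean can therefore carry part of the group difference and is not a measure of thyrocyte content alone. Unaffected replicate 23 held a summed 38970 CPM of 7 genes of mucous glands (*Muc5b*, *Muc19*, *Gp2*, *Smgc*, *Dcpp1*, *Dcpp2* and *Dcpp3*), while the other unaffected mice held at most 8.40 CPM. These 7 genes were chosen after the values were seen. Affected replicate 3 held 186.0 CPM of the same genes and 501.1 CPM of 5 genes of airway epithelium, also chosen after the values were seen, against at most 78.5 CPM in any other mouse. Muscle markers summed to 25850 CPM in affected replicate 6, to 10.4 to 1146 CPM in the other affected mice and to 1.03 to 10930 CPM in the unaffected mice. T cell markers summed to 324.7 and 315.5 CPM in unaffected replicates 14 and 21, and to at most 51.2 CPM in any other mouse. Affected replicate 4, the mouse with the highest *Atf6* and *Ern1*, held 29.4 CPM of parathyroid markers, against 1803 to 4309 CPM in all other mice, and its *Pth* was at 0.722 CPM. Without it the log2 fold change of *Atf6* was 0.64 (adjusted p = 0.000678, within 6.92e-10 to 0.00604 over the alternatives) and that of *Ern1* 0.33 (adjusted p = 0.0518, within 0.00291 to 0.203). In affected replicate 1, B cell markers summed to 90.4 CPM and adipocyte markers to 2816 CPM, against at most 8.61 and 1202 CPM in any other mouse. In whole thyroid, fewer cells of a type and less RNA per cell cannot be told apart.

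Of the 10 members, *Atf6* and *Ern1* were higher in the affected thyroids, *Eif2ak4* was lower, and the other 7 did not pass an adjusted p of 0.05. These were 3 calls of 10, while 13.7% of all genes tested were called. The largest change was that of *Atf6*, at 1.64-fold. The median log2 fold change of the members was 0.19, against 0.01 over all genes tested, and 7 of 10 were above 0. Unadjusted p-values were under 0.05 for 6 members of 10 and for 29.0% of all genes tested. The groups did not overlap for 1 member, *Atf6*, compared with 7.14% of all genes tested in either direction, 3.78% with the affected mice higher and 3.36% with them lower. Adjusted p-values are from a quasi-likelihood fit in edgeR, corrected by the Benjamini-Hochberg method across every gene tested. The p-values set the difference between the groups against the spread between these mice, and they do not separate phenotype from substrain or vendor. How the mice were housed or collected is not given in the labels.

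**Figure D1:**
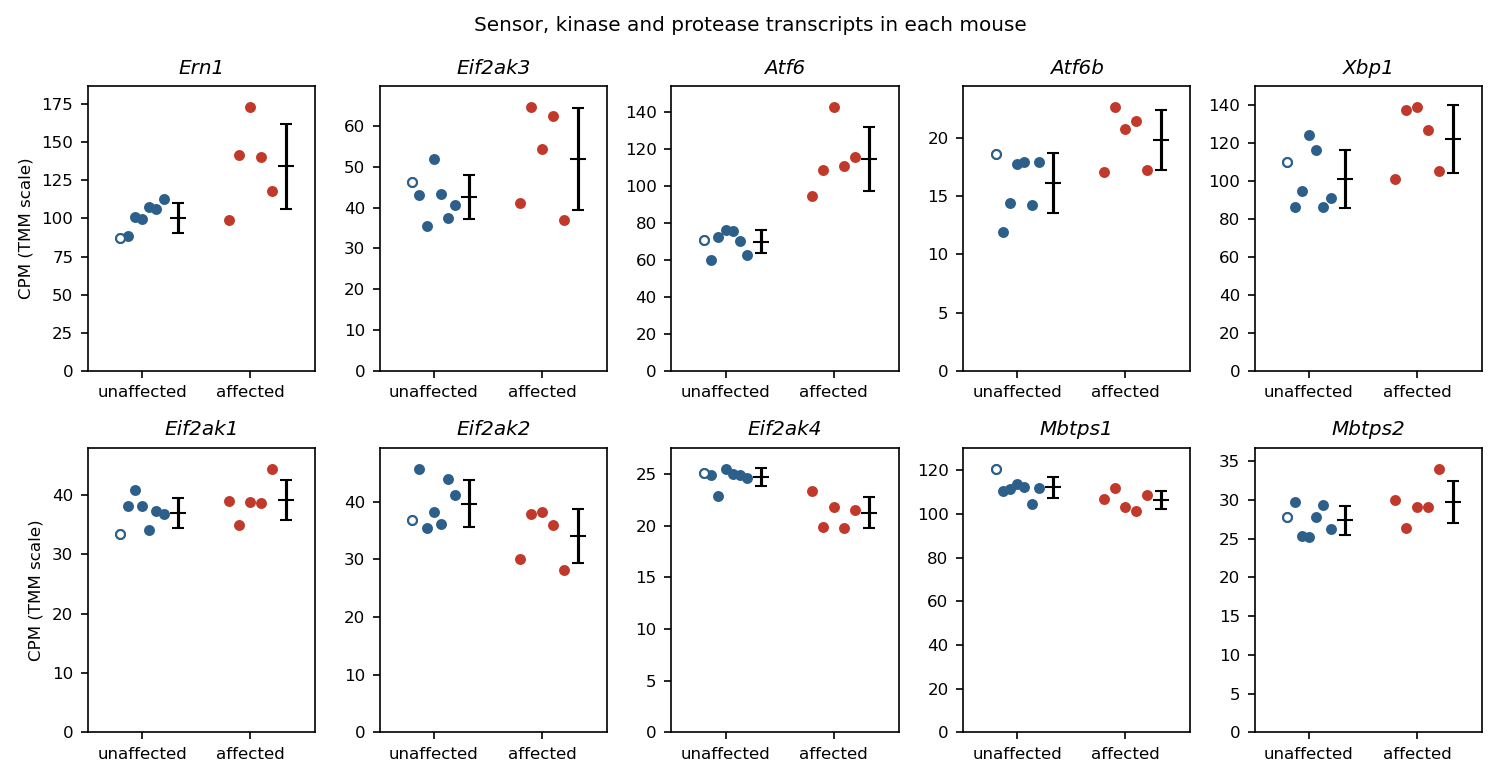
Expression of each member in CPM on the TMM scale, with 1 point per mouse (blue, 7 unaffected mice, the open point being the Taconic animal; red, 5 affected mice) and the mean and SD of each group in black. *Atf6* is the member whose affected mice, from 94.8 to 143 CPM, all lie above the unaffected mice, from 60.2 to 76.2 CPM.

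*Atf6*, the sensor that is itself a transcription factor precursor, lies on the minus strand at chr1:170704674-170867771 (GRCm38). Its CPM in the affected mice was 94.8 in replicate 1, 109 in replicate 3, 143 in replicate 4, 111 in replicate 5 and 115 in replicate 6. In the unaffected mice it ranged from 60.2 to 76.2, with a median of 70.8. Every affected mouse was above every unaffected mouse, and replicate 4 was the highest. The log2 fold change was 0.71 ± 0.10 (SE, 95% interval 0.51 to 0.92, adjusted p = 0.000583). *Atf6* is marked as confounded in the deposited table, as are *Eif2ak1*, *Eif2ak2*, *Eif2ak3* and *Mbtps2*, and the mark is not defined in the sources used here. No exon of another annotated gene shares bases with the exons of *Atf6*. Its change passed the threshold in each of the alternative fits, in which the log2 fold change lay between 0.58 and 0.78 (adjusted p from 6.92e-10 to 0.00604), and was 0.75 without unaffected replicate 23.

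*Atf6b*, its paralog, is cut by the same proteases. It lies on the plus strand at chr17:34647146-34655074. The affected mice had 17.1, 22.7, 20.7, 21.4 and 17.2 CPM in replicates 1, 3, 4, 5 and 6, and the unaffected mice 11.9 to 18.7 CPM with a median of 17.7. Affected replicates 1 and 6 lay within the unaffected range, and the other 3 lay above it. Its log2 fold change of 0.30 ± 0.12 (SE, 95% interval 0.03 to 0.57, adjusted p = 0.127) did not pass the threshold. Per length, the ratio of *Atf6* to *Atf6b* was 2.17 ± 0.296 in the affected mice (SD, n = 5) and 1.63 ± 0.266 in the unaffected mice (SD, n = 7). The ranges of this ratio overlapped, from 1.82 to 2.49 and from 1.27 to 1.93.

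The proteases that activate ATF6 showed no change past the threshold. *Mbtps1* (chr8:119508156-119558735, minus strand) was at 107, 112, 103, 101.4 and 109 CPM in affected replicates 1, 3, 4, 5 and 6 and at 105 to 121 CPM in the unaffected mice, with a median of 112. Its log2 fold change was -0.07 ± 0.05 (SE, 95% interval -0.18 to 0.03, adjusted p = 0.36). *Mbtps2* (chrX:157535371-157598715, minus strand) was at 30, 26.4, 29.1, 29.1 and 34.0 CPM in the affected mice in the same order and at 25.2 to 29.7 CPM in the unaffected mice, with a median of 27.7. Its log2 fold change was 0.12 ± 0.07 (SE, 95% interval -0.03 to 0.28, adjusted p = 0.293). The groups overlapped for both genes, and both intervals exclude a change of the size fitted for *Atf6*. The gene *Yy2* lies on the same strand within 28.4% of the exon bases of *Mbtps2*, so that some of its counts are uncertain.

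Other substrates of these proteases and their partners were measured as a list of 11 genes, of which 10 were tested. *Creb3*, a membrane-bound transcription factor, and *Scap*, the escort of the SREBP proteins, were higher, with log2 fold changes of 0.42 ± 0.12 (adjusted p = 0.0402) and 0.21 ± 0.06 (adjusted p = 0.0475). None was lower. These were 2 of 10 genes higher, while 7.63% of all genes tested were called higher. The count was 0 in 7 of 12 fits that left out 1 mouse each (affected replicates 3 and 5, unaffected replicates 14, 21, 22, 24 and 26) and in 9 of 14 other alternatives. The sterol regulators *Srebf1* and *Srebf2* had log2 fold changes of -0.01 ± 0.10 and 0.07 ± 0.09. The median of the list was 0.05, near that of all genes tested.

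*Ern1*, the gene of IRE1 alpha, lies on the minus strand at chr11:106394650-106487852. Its CPM was 99.1 in affected replicate 1, 142 in replicate 3, 173 in replicate 4, 140.0 in replicate 5 and 118 in replicate 6. The unaffected mice had 87.2 to 113 CPM, with a median of 100.8. Affected replicates 3, 4, 5 and 6 lay above all unaffected mice, and replicate 1 lay within their range. The log2 fold change was 0.42 ± 0.12 (SE, 95% interval 0.16 to 0.68, adjusted p = 0.0361), or 1.34-fold. The SD between affected mice was 27.8 CPM, against 9.6 CPM between unaffected mice. Affected replicates 1 and 6, with the lowest *Ern1* of the affected group, also had its lowest thyrocyte marker levels. With the mean of the 11 thyrocyte markers as a covariate, an alternative chosen after seeing the data, the log2 fold change was 0.38 ± 0.07 (SE, adjusted p = 0.00291, the lowest over the alternatives, whose highest was 0.203). This covariate includes *Slc26a4* and *Pax8*, both called between the groups, so that it is not free of the phenotype. Without unaffected replicate 23 the log2 fold change of *Ern1* was 0.43 (adjusted p = 0.0442). The call was lost without affected replicate 3, 4 or 5 or without unaffected replicate 14 or 21, one at a time (adjusted p from 0.0518 to 0.0829).

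The paralog *Ern2*, which encodes IRE1 beta of mucous epithelia, is on the minus strand at chr7:122169893-122186207. It had too few counts to be tested and lay at 0 to 0.1465 CPM in all mice but 2. The exceptions were unaffected replicate 23 with 231 counts (11.3 CPM) and affected replicate 3 with 35 counts (1.52 CPM), the same mice that held the most mucous gland transcripts. *Muc5b*, a secreted mucin, was at 35090 CPM in the former and at 174 CPM in the latter.

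*Xbp1*, the mRNA that IRE1 cuts, lies on the plus strand at chr11:5520659-5525893. The cut removes 26 bases from exon 4 of 5 of transcript Xbp1-201 at chr11:5524279-5524304, shown in capitals with 2 flanking bases on each side because this segment separates the inactive from the active message.
*Xbp1*, unspliced, chr11:5524277-5524306, plus strand, GRCm38: cgCAGCACTCAGACTATGTGCACCTCTGca
The 26 bases are present in all 3 protein-coding transcripts annotated for *Xbp1* (Xbp1-201, Xbp1-203 and Xbp1-204), so that none of these is the spliced form. A count per gene sums both forms, and the share of the spliced message was not measured in these tables.

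Total *Xbp1* was at 100.9, 137, 139, 127 and 105 CPM in affected replicates 1, 3, 4, 5 and 6. The unaffected mice had 86.0 to 124 CPM, with a median of 94.7. Affected replicates 3, 4 and 5 lay above all unaffected mice, while replicates 1 and 6 lay among them. The log2 fold change of 0.27 ± 0.12 (SE, 95% interval 0.01 to 0.53) did not pass the threshold (adjusted p = 0.152). The highest unaffected value, 124 CPM, was that of replicate 23, the mouse with mucous gland transcripts. Without this mouse the log2 fold change was 0.34 (adjusted p = 0.0647), and with the thyrocyte covariate it was 0.24 (adjusted p = 0.0642). Adjusted p-values over all alternatives ran from 0.0642 to 0.548, so that no alternative gave a call.

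Genes whose mRNA IRE1 can degrade were measured as a list of 6. *Scara3*, a scavenger receptor, and *Col6a1*, a collagen chain, were higher, with log2 fold changes of 0.85 ± 0.20 (adjusted p = 0.0164) and 0.57 ± 0.10 (adjusted p = 0.00406). The other 4 did not pass the threshold and none was lower, where 7.63% of all genes tested were higher and 6.1% lower. Only 1 of the 6 was called with library totals without *Tg*, with unfiltered log2(FPKM + 1) values, and without unaffected replicates 14 and 23. *Col6a1* is a fibroblast transcript, and 2 of 6 fibroblast markers were also higher, *Dcn* being the most abundant. The summed fibroblast markers were at 934 ± 204 CPM in the affected mice (SD, n = 5) and at 700 ± 74.3 CPM in the unaffected mice (SD, n = 7). The part of these cells in the result was not tested.

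*Eif2ak3*, the gene of PERK, lies on the plus strand at chr6:70844515-70905245. Its CPM was 41.2, 64.6, 54.4, 62.5 and 37.1 in affected replicates 1, 3, 4, 5 and 6. The unaffected mice had 35.6 to 51.9 CPM, with a median of 43.1. Affected replicates 3, 4 and 5 were above all unaffected mice, and replicates 1 and 6 were below the unaffected mean. Its log2 fold change of 0.29 ± 0.14 (SE, 95% interval -0.02 to 0.60, adjusted p = 0.207) did not pass the threshold. The highest unaffected value was again that of replicate 23. Without it the log2 fold change was 0.35 (adjusted p = 0.115), and adjusted p-values over all alternatives ran from 0.0592 to 0.642. A transcript annotated on the opposite strand, *Gm43292*, covers 8.05% of the exon bases of *Eif2ak3*, and whether counting used the strand was not stated.

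The substrate of the kinases and the enzymes that reverse their action were measured as a list of 13 genes, with subunits of eIF2, of its exchange factor eIF2B and of its phosphatases. Of these, 3 were higher and none was lower, where 7.63% of all genes tested were higher. *Eif2s1*, which encodes the phosphorylated alpha subunit itself, had a log2 fold change of 0.26 ± 0.07 (adjusted p = 0.0361). *Ppp1r15a*, the stress-induced phosphatase subunit GADD34, rose from 18.8 ± 3.8 CPM in the unaffected mice (SD, n = 7) to 33.1 ± 7.22 CPM in the affected mice (SD, n = 5), without overlap (log2 fold change 0.82 ± 0.16, adjusted p = 0.00572). The catalytic subunit gene *Ppp1ca* rose by 0.20 ± 0.05 on the log2 scale (adjusted p = 0.0141), also without overlap. *Ppp1r15b*, the constitutive counterpart of *Ppp1r15a*, had a log2 fold change of 0.12 ± 0.10 (adjusted p = 0.474). The 5 eIF2B subunit genes had log2 fold changes from 0.03 to 0.28, and none passed the threshold. The median of the list was 0.12. Only 1 gene of the list was called with unscaled library totals (with or without *Tg*), with FPKM values, with upper-quartile factors or when no filter was applied.

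Of the other 3 kinases, *Eif2ak4* was lower in the affected thyroids. *Eif2ak4*, the gene of GCN2, lies on the plus strand at chr2:118388618-118475234. Its CPM was 23.4, 19.9, 21.9, 19.8 and 21.5 in affected replicates 1, 3, 4, 5 and 6, and 22.9 to 25.5 in the unaffected mice, with a median of 24.9. Affected replicates 3, 4, 5 and 6 lay below all unaffected mice, while replicate 1 was above the lowest unaffected mouse, replicate 22. The log2 fold change was -0.22 ± 0.06 (SE, 95% interval -0.34 to -0.09, adjusted p = 0.0305), and the mean level dropped by 13.9%. The call was kept in 4 of 12 fits that left out 1 mouse each and in 7 of 14 other alternatives, and adjusted p-values ran from 0.0123 to 0.262. It was at -0.19 when unaffected replicate 23 was left out (adjusted p = 0.0687), and the direction was the same in all 26 alternatives.

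*Eif2ak2*, the gene of PKR, lies on the minus strand at chr17:78852564-78882573. It was at 30, 38.0, 38.2, 35.9 and 28.1 CPM in the affected mice in the same order and at 35.5 to 45.8 CPM in the unaffected mice, with a median of 38.3. Affected replicates 1 and 6 were below all unaffected mice, and the other 3 overlapped them. Its log2 fold change of -0.22 ± 0.10 (SE, 95% interval -0.43 to -0.01, adjusted p = 0.152) did not pass the threshold. PKR is itself induced by interferon, and its promoter holds the interferon response motif GAAANNGAAA from 18 bases after the start, shown in capitals.
*Eif2ak2* promoter, chr17:78882535-78882563, minus strand, GRCm38: gtccgccggGAAAACGAAAcagaagagaa
This motif, searched on both strands in windows of 250 bases before to 50 bases after each start, was found in 3.44% of 32851 promoters from RefSeq (GRCm38.p6). It was present in 7 of the 9 interferon-induced genes with a promoter in the table, and in none of the promoters of the 8 other members found there, *Atf6* not being among them. Of 12 interferon-induced genes, 1 was lower (*Rsad2*, an antiviral enzyme, log2 fold change -0.55 ± 0.13, adjusted p = 0.0168) and none was higher, where 6.1% of all genes tested were lower. The median of this list was -0.07.

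*Eif2ak1*, the gene of HRI, lies on the plus strand at chr5:143817788-143904251. Its CPM was 38.99, 34.9, 38.7, 38.6 and 44.4 in the affected mice in the same order and 33.3 to 40.7 in the unaffected mice, with a median of 37.3. The groups overlapped, and the log2 fold change was 0.08 ± 0.07 (SE, 95% interval -0.07 to 0.23, adjusted p = 0.467). Exons of *Aimp2* on the opposite strand cover 8.59% of its exon bases. Of 8 genes of red blood cells and heme synthesis, 6 were tested and 1 was lower, *Epb42* (log2 fold change -1.53 ± 0.30, adjusted p = 0.00624), where 6.1% of all genes tested were lower. No gene of the list was called in 4 of 14 alternatives other than leaving out 1 mouse. *Epb42* was at 0.272 CPM in the affected and 0.787 CPM in the unaffected mice on average, a low level.

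Direct regulators of GCN2, HRI and PKR were measured as a list of 7 genes. One gene was lower and none was higher, where 6.1% of all genes tested were lower. It was *Prkra*, the activator of PKR known as PACT, with a log2 fold change of -0.34 ± 0.09 (adjusted p = 0.0322). *Gcn1*, the ribosome-bound activator of GCN2, had a log2 fold change of 0.13 ± 0.06 (adjusted p = 0.176), and *Adar*, which edits double-stranded RNA, one of -0.24 ± 0.13 (adjusted p = 0.223). The call of *Prkra* was lost in 7 of 12 fits without 1 mouse (affected replicates 1, 3, 5 and 6, unaffected replicates 21, 22 and 24) and in 4 of 14 other alternatives. The median of the list was -0.04.

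**Figure D2:**
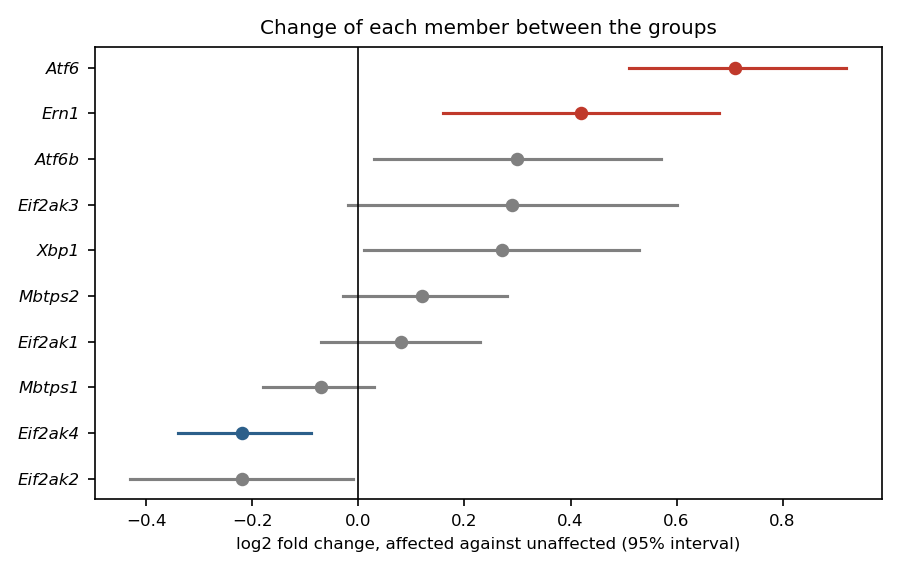
Log2 fold change of each member, affected against unaffected mice, with its 95% interval from the edgeR fit (red, called higher; blue, called lower; grey, not called). *Atf6* has the highest value, 0.71, and its interval overlaps those of *Ern1*, *Atf6b*, *Eif2ak3* and *Xbp1*.

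Levels between members were compared as FPKM, which accounts for transcript length. In the unaffected thyroids the order was *Xbp1* with 53.9 ± 8.30 FPKM (SD, n = 7), *Mbtps1* with 28.2 ± 1.55, *Ern1* with 17.7 ± 1.31, *Eif2ak2* with 14.1 ± 2.05, *Eif2ak3* with 11.5 ± 1.86, *Atf6* with 10.5 ± 0.682, *Eif2ak1* with 9.37 ± 0.526, *Mbtps2* with 7.51 ± 0.692, *Atf6b* with 6.61 ± 1.24 and *Eif2ak4* with 6.08 ± 0.398 FPKM. Neighbours in this order were separated without overlap between *Xbp1* and *Mbtps1*, between *Mbtps1* and *Ern1*, and between *Eif2ak1* and *Mbtps2*. All other neighbours overlapped in their ranges. In the affected thyroids, *Atf6* with 17.1 ± 1.76 FPKM (SD, n = 5) stood in the fourth place, above *Eif2ak3* with 13.4 ± 3.59 and *Eif2ak2* with 11.2 ± 1.47. The ranges of *Atf6* and *Eif2ak3* overlapped there, and *Atf6* was the higher in 4 of 5 mice. The same first 3 places were held by *Xbp1* with 64.8 ± 10.5, *Mbtps1* with 26.9 ± 2.19 and *Ern1* with 23.0 ± 3.84 FPKM, and *Eif2ak4* was again last with 5.07 ± 1.05 FPKM.

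**Figure D3:**
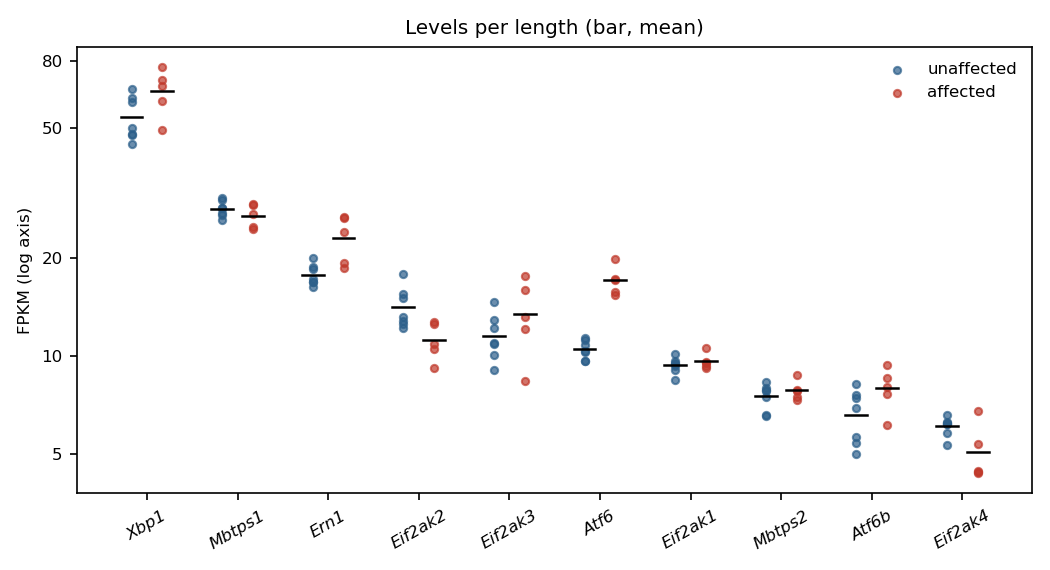
Deposited FPKM of each member on a log axis, with 1 point per mouse (blue, 7 unaffected; red, 5 affected) and a bar at the group mean, ordered by the mean of the unaffected mice. *Xbp1* is the most abundant member in every mouse, and the affected mice of *Atf6*, with a mean of 17.1 FPKM, lie above the unaffected mice, with a mean of 10.5 FPKM.

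Within the 4 eIF2 alpha kinases, PERK had the largest mean share of the summed FPKM in the affected mice and PKR in the unaffected mice, with exceptions in affected replicate 6, where HRI was highest, and unaffected replicate 23, where PERK was. *Eif2ak3* accounted for 33.8% ± 6.03 of it in the affected mice (SD, n = 5) and 28.0% ± 3.52 in the unaffected mice (SD, n = 7). *Eif2ak2* accounted for 28.4% ± 2.09 and 34.3% ± 3.18, *Eif2ak1* for 24.8% ± 3.65 and 22.9% ± 1.74, and *Eif2ak4* for 13.0% ± 2.67 and 14.8% ± 0.764. The ranges of the groups overlapped for all 4 shares. The summed level of the kinases was 39.3 ± 4.55 FPKM in the affected and 41.1 ± 3.34 FPKM in the unaffected mice.

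Of 16 genes whose products bind the sensors or work beside them, 13 were higher and none was lower, where 7.63% of all genes tested were higher, and the median log2 fold change was 0.89. *Hspa5* encodes BiP, the chaperone that holds the sensors inactive in the unstressed state. It rose from 225 ± 75.7 CPM in the unaffected mice (SD, n = 7) to 1655 ± 621 CPM in the affected mice (SD, n = 5), without overlap (log2 fold change 2.88 ± 0.28, adjusted p = 9.87e-05). *Pdia6*, a disulfide isomerase that acts on IRE1 and PERK, had a log2 fold change of 2.37 ± 0.23 (adjusted p = 8.67e-05). *Dnajb9*, the cochaperone ERdj4 that brings BiP to IRE1, had one of 1.46 ± 0.19 (adjusted p = 0.000584), and *Dnajc3*, the PERK inhibitor p58IPK, one of 1.39 ± 0.18 (adjusted p = 0.000563). *Sel1l* and *Syvn1*, subunits of the ubiquitin ligase complex that degrades IRE1 alpha, had log2 fold changes of 1.98 ± 0.17 (adjusted p = 5.36e-05) and 1.33 ± 0.28 (adjusted p = 0.00961). The 3 partners that did not pass were *Traf2*, which binds active IRE1 (-0.11 ± 0.12, adjusted p = 0.579), and *Rtcb* and *Zbtb8os* (archease) of the ligase that rejoins *Xbp1* (0.04 ± 0.09 and 0.26 ± 0.13, adjusted p = 0.79 and 0.192).

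Genes known to be activated downstream of the sensors were measured as a list per transcription factor. The lists were chosen with results of these mice known, and their counts are no independent evidence of direction. Of 14 genes under ATF6, all 14 were higher, with a median log2 fold change of 2.46, where 7.63% of all genes tested were higher. Their summed level was 6688 and 6121 CPM in affected replicates 1 and 6, the mice with low thyrocyte markers, and 13330, 12820 and 12950 CPM in replicates 3, 4 and 5, against 1709 to 2795 CPM in the unaffected mice. The part of thyrocyte content in these levels was not tested. With the thyrocyte covariate, which is not free of the phenotype, all 14 were called. The largest changes were those of *Sdf2l1* (3.76 ± 0.40, adjusted p = 0.000219), *Creld2* (3.41 ± 0.29, adjusted p = 5.53e-05) and *Pdia4* (3.00 ± 0.25, adjusted p = 5.53e-05), which encode a BiP cofactor and folding enzymes. Of 14 genes under XBP1, all 14 were higher, with a median of 0.90, and 8 of 14 were called with library totals without *Tg*. *Derl3*, which serves the export of misfolded proteins, rose from 7.39 ± 3.45 to 152 ± 55.5 CPM (log2 fold change 4.36 ± 0.37, adjusted p = 6.66e-05). *Pdia4* and *Hsp90b1* (2.63 ± 0.24, adjusted p = 7.06e-05), which stand in both lists, followed it. Of 18 genes under ATF4, 11 were higher and none was lower, with a median of 1.03. *Atf3* (3.50 ± 0.48, adjusted p = 0.000876), *Ddit3* or CHOP (2.61 ± 0.28, adjusted p = 0.00017) and *Trib3* (2.57 ± 0.27, adjusted p = 0.000131) encode regulators of the stress response, and *Slc7a5* (2.33 ± 0.30, adjusted p = 0.00052) an amino acid transporter. Over the 10 pathway lists, 107 of 110 different genes were tested, of which 50 were higher and 3 were lower, a total of 53 that was 37 with library totals without *Tg*.

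**Figure D4:**
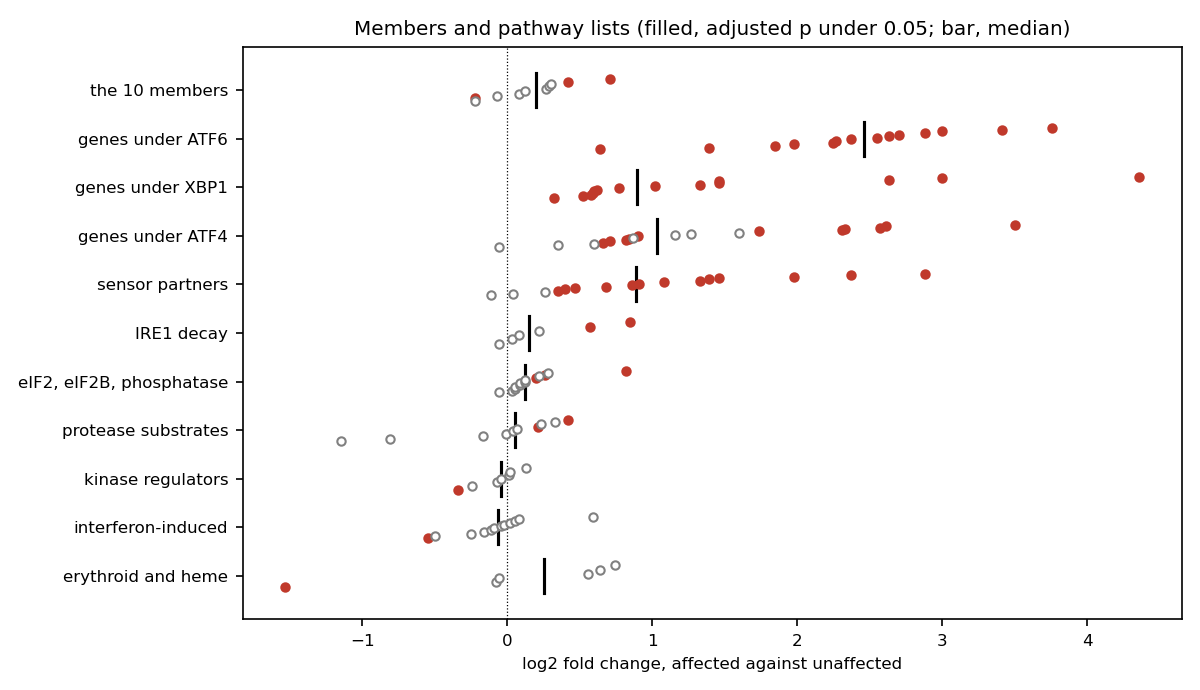
Log2 fold changes, affected against unaffected mice, of the 10 members and of the genes in 10 pathway lists, with 1 point per gene (filled, adjusted p under 0.05; open, not called) and a bar at each median. The members have a median of 0.19, and the genes under ATF6 one of 2.46.

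The element bound by ATF6, the endoplasmic reticulum stress element, is CCAAT followed by 9 bases and CCACG. It was searched on both strands of the same 300-base promoter windows and found in 39 of 32851 promoters, or 0.119%. A promoter was in the table for 9 of the 10 members, all but *Atf6*, and none of these 9 held the full element. It was present in 7 of 12 promoters of the genes under ATF6, in 4 of 13 of the sensor partners and in 3 of 12 of the genes under XBP1. The 4 partner promoters were also counted under ATF6 (*Hspa5*, *Pdia6* and *Dnajc3*) or under XBP1 (*Syvn1*), so that they are no separate result. With the element in 0.119% of all promoters, its absence from the 9 member promoters does not set the members apart. The partner promoters that hold it in this window are shown with the element in capitals.
*Hspa5*, chr2:34772020-34772048, plus strand: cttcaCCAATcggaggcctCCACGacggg
*Pdia6*, chr12:17266486-17266514, plus strand: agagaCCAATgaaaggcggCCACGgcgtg
*Dnajc3*, chr14:118937822-118937850, plus strand: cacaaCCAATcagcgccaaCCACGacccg
*Syvn1*, chr19:6046527-6046555, plus strand: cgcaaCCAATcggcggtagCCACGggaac
The elements began 65, 98, 105 and 44 bases before the start of the gene. The last letters alone, CCACG, were found in 32.8% of all promoters, and in those of *Ern1*, *Eif2ak1* and *Mbtps1* among the members. The core TGACGTG bound by ATF6 and XBP1 was found in 2.01% of all promoters and in none of the 9 member promoters. The amino acid response motif TGATGNAA, read by ATF4 with its partners, was found in 3.97% of all promoters, in 7 of 17 genes under ATF4 and in none of the 9 member promoters. A match is a description of letters and not of binding.

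The genes most like each sensor over the 12 mice were found by the root mean square difference of z-scored log2 CPM among 15521 candidates. Those nearest to *Atf6* were *Hdlbp* with 0.18, *Rnf141* with 0.22 and *Rac1* with 0.22, where the median candidate was at 1.37. The log2 fold changes of these 3 genes were 0.69, 0.41 and 0.29. Those nearest to *Ern1* were *Sdc2*, *Srp54c* and *Trabd2b*, at 0.24, 0.24 and 0.25. Those nearest to *Xbp1* were *Sec23b*, *Cltc* and *Gfpt1*, at 0.30, 0.34 and 0.36, and those nearest to *Eif2ak3* were *Pvr*, *Zc3h7a* and *Suco*, at 0.29, 0.31 and 0.32. The points share library depth and tissue content, and the values are descriptions.

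The count and FPKM of a gene together give the transcript length that the quantification used, which moves with the mix of isoforms. None of the 10 members differed between groups in this length, while 38 of 8946 genes (0.425%) did, by limma with Benjamini-Hochberg adjustment. For *Xbp1* it was 1877 ± 31 bases in the affected mice (SD, n = 5) and 1882 ± 23 bases in the unaffected mice (SD, n = 7). All annotated coding transcripts of *Xbp1* hold the 26 bases that IRE1 removes, so that this length cannot register the cut. The largest difference was that of *Eif2ak2*, with 7.21% (3042 ± 258 against 2830 ± 88 bases, adjusted p = 0.407). For *Eif2ak3* the difference was 3.89% (adjusted p = 0.386, limma p = 0.048, and 0.0505 by exact permutation of the mice, two-sided). How many of the 8946 genes had as low an unadjusted value was not counted, so that this member cannot be set against them.

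The unaffected Taconic animal shares its vendor with the affected mice and its phenotype with the B6NCrl mice. Its *Atf6* of 70.8 CPM lay within the range of the 6 B6NCrl mice, from 60.2 to 76.2, and below all affected mice. Its *Eif2ak4* of 25.2 CPM lay likewise within the B6NCrl range and above all affected mice. Its *Ern1* of 87.2 CPM was below all B6NCrl and all affected mice. *Xbp1*, *Eif2ak2*, *Eif2ak3* and *Mbtps2* were within the ranges of both groups, and its *Eif2ak1* of 33.3 CPM was below all other mice. Its *Atf6b* of 18.7 CPM was above all B6NCrl mice and within the affected range, and its *Mbtps1* of 121 CPM was above all other mice. These values rest on 1 animal and the shallowest library, and the differences were not tested.

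Markers of other cell types were summed in each mouse, and no list separated the groups in CPM. Of 7 macrophage markers 4 were higher in the affected mice, where 7.63% of all genes tested were higher, with summed levels of 164 ± 31.0 CPM (SD, n = 5) and 99.96 ± 30.9 CPM in the unaffected mice (SD, n = 7). *Csf1r* was the most abundant, and no macrophage marker was at 0 in any mouse. Of 12 thyrocyte markers 1 was higher, 1 was lower and 10 were not called, where 13.7% of all genes tested were called. *Slc26a4* was higher (log2 fold change 3.69 ± 0.64, adjusted p = 0.00301). Its mean was low, at 0.117 CPM in the unaffected and 1.64 CPM in the affected mice. *Pax8* was lower (-0.81 ± 0.19, adjusted p = 0.0158), and the median of the list was -0.09. Plasma cell markers, of a cell type rich in XBP1, summed to 260.4 CPM in affected replicate 1 and to 33.2 to 45.3 CPM in the other 4 affected mice, against 36.2 to 82.9 CPM in the unaffected mice. Of 3 C cell markers tested, 1 was lower, *Ret* (log2 fold change -0.80 ± 0.23, adjusted p = 0.0377). Of 5 endothelium markers, 1 was lower, *Kdr* (-0.60 ± 0.18, adjusted p = 0.0413), where 6.1% of all genes tested were lower. The other endothelium markers were not called, with *Pecam1* at 0.31, *Cdh5* at 0.20, *Tek* at 0.17 and *Emcn* at -0.55. The median of the endothelium list was 0.17. No marker of plasma cells, B cells, T cells, parathyroid, muscle, adipocytes or erythrocytes was called. The part of these cell types in the values of the members was not tested.

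**Figure D5:**
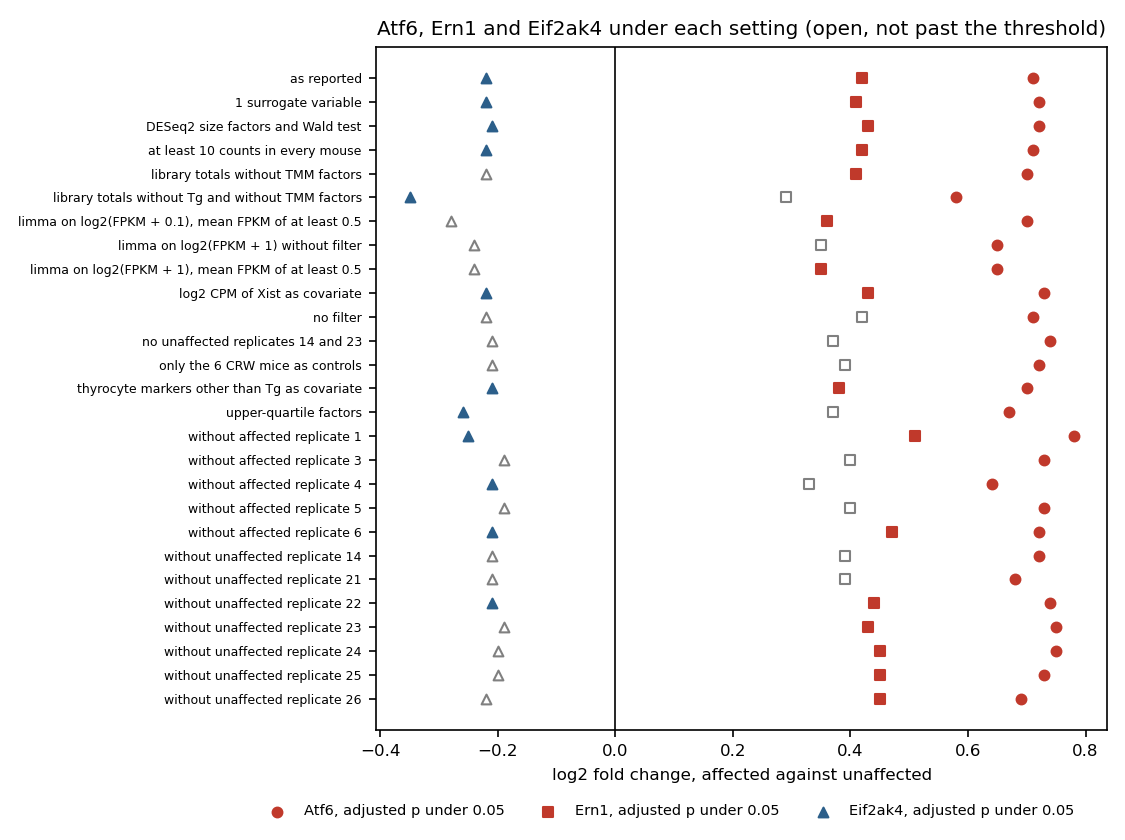
Log2 fold changes of *Atf6* (circles), *Ern1* (squares) and *Eif2ak4* (triangles), affected against unaffected mice, in the reported fit and under each alternative named on the left (filled, adjusted p under 0.05; open, not called). *Atf6* is filled throughout, from 0.58 to 0.78, while *Ern1* and *Eif2ak4* are open in part of the alternatives.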

How the data were processed

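RNA sequencing of total RNA, depleted of ribosomal RNA, gave 1 library per mouse for 5 affected and 7 unaffected thyroids. The authors aligned reads with the OmicSoft aligner and deposited estimated counts per gene, not normalized, and FPKM values. The reference is named Mouse.B39 with an Ensembl annotation. Coordinates of 55450 of the 55536 genes, the 10 members included, match GENCODE M21 on GRCm38, which was used for positions. Strand use in counting is not given in the sources used here.

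Estimated counts were rounded and filtered with filterByExpr (minimum count 10), scaled by TMM and fitted by quasi-likelihood with robust estimation in edgeR 4.0.16 (R 4.3.3), affected against unaffected, with Benjamini-Hochberg adjustment over 19661 genes and a threshold of 0.05. CPM values are on the TMM scale with no prior count, and log2 values for likeness have a prior count of 2. FPKM served for levels. Implied lengths were tested with limma 3.58.1 on genes with at least 100 counts in every mouse. On counts simulated for these 19661 genes, of which 200 were changed, 63% of genes changed 2-fold and 83% of those changed 4-fold were recovered, with 3.311% false calls. The largest change of a member, 1.64-fold, is below the sizes simulated, and far more genes were called in the data. These rates therefore do not describe the recovery of changes as small as those of the members. Total counts ran from 11434901 to 23319948 per mouse, and counting error is given by no interval here.

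The study's text names no expression test. The members and the lists were chosen with earlier results of these data known. Named were all members and *Ern2*, the 4 largest called changes per pathway list, genes of the partner, eIF2, regulator and protease lists, cell markers, and the 3 nearest genes to 4 members. The mucous gland and airway lists were chosen after values were seen. Alternatives used DESeq2 1.42.0, sva 3.50.0, other scaling, filters, FPKM with a pseudocount of 1 or 0.1, covariates and leaving out mice.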

Additional observations from a re-analysis of the deposited data

Results flagged for a closer look

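In 22 groups of values, those of the 10 members and *Ern2* in each group, 3 held a mouse far from the others by Dixon's criterion, which chance meets in about 1 of 20 groups. *Eif2ak4* was lowest in unaffected replicate 22 with 22.9 CPM, where the next value was 24.6 CPM. *Ern2* was highest in affected replicate 3 with 1.52 CPM, the next being 0.0873 CPM, and in unaffected replicate 23 with 11.3 CPM, the next being 0.1465 CPM. These are the mice with 186.0 and 38970 CPM of mucous gland transcripts, and the part of that tissue in the *Ern2* counts was not tested.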

How the results depend on the processing

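Of 10 members, 3 were called as reported. Only 1, *Atf6*, was called with limma on log2(FPKM + 1) without a filter, with no filter on counts, without unaffected replicates 14 and 23 (chosen after seeing the data), and with only the 6 B6NCrl mice as controls, which is the same fit as leaving out replicate 14. Calls among all genes numbered 2699 as reported and 1339 in the unfiltered FPKM fit. Leaving out 1 mouse at a time gave 1 to 3 members, 46 to 55 called pathway genes and 1774 to 3390 genes of all, the lowest without affected replicate 5. Members were down to 1 without affected replicate 3 or 5 or without unaffected replicate 14 or 21. No paired analysis was possible because the groups share no replicate numbers.

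Scaling by library totals without *Tg* shifted the median of all genes to -0.133 and turned *Eif2ak1* to -0.06 and *Mbtps2* to -0.03. The calls among all genes were then 608 higher and 1711 lower, against 1500 and 1199 as reported, and *Ern1* was at 0.29 (adjusted p = 0.203, within a range of 0.00291 to 0.203). Upper-quartile factors gave 1149 higher and 1510 lower. The cause was not tested. *Ern1* was called in 7 of 12 fits without 1 mouse and in 8 of 14 other alternatives. Summed FPKM in place of CPM separated 1 cell type list between groups, fibroblast, and none did in CPM. The other 7 members were called in no alternative. Members had 224 counts or more in each mouse, and *Ern2* 0 to 231.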
